A study of Mus musculus with 1 sample.

Results

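The genes described here make, store and break down fatty acids, phospholipids, sphingolipids and triacylglycerol. They were chosen by symbol, as every probe whose annotated gene symbol names one of a fixed set of synthases, desaturases, elongases, acyl-CoA synthetases, acyltransferases, phosphatases, kinases, ceramide synthases, perilipins, lipases, phospholipases A2 or fatty acid binding proteins. The rule uses symbols and no measured value, and it found 96 probes of 94 genes, among 23473 gene probes and 19321 named genes on the array. The sample was 1 one-colour array of parental RAW264.7 cells, a mouse macrophage-like line, grown in medium with serum. The line is transformed and is known to come from BALB/c mice. The study set it against lines mutated with ENU and sorted for loss of peroxiredoxin uptake, whose arrays were not analysed here. With 1 array there was no comparison between lines, no spread between samples and no p-value, and precision is limited by that number of arrays.

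Cells build saturated fatty acids from acetyl-CoA, modify them by desaturation and elongation, and join them to coenzyme A before they enter glycerolipids or ceramides. Surplus acyl chains go into triacylglycerol and sterol esters, which are packed into lipid droplets coated by perilipins and are released again by lipases. In macrophages the same chains serve as fuel, as membrane for engulfment, and, once phospholipase A2 has freed arachidonate, as the source of eicosanoids. Lipid-laden macrophages are the foam cells of the arterial wall.

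Signal is the median pixel intensity of a spot in the Cy5 channel, in arbitrary units, without subtraction of its local background. The blank limit was 22.98, the mean plus 2 SD of the blank spots. A stricter limit, 55.8, is the 95th percentile of the probes of olfactory, vomeronasal and taste receptors, genes known for expression in sensory cells, and is called the receptor limit. A gene with several probes took the higher one. Signals also depend on the probe, so genes were set against the limits and not against each other, and a low reading may come from a poor probe or a scarce transcript. The error within the array could be read from repeated control spots. The 2 positive controls, with 24 spots each, varied by 4.98% and 5.37% (coefficient of variation over spots, at bright signals only), and the blanks, trimmed by 5% at each end, had an SD of 1.18 around 20.6. Of all 2736 blanks, 195 (7.13%) were over the blank limit and 0 over the receptor limit. Spots labelled No probe passed more often, with 531 of 1102 (48.2%) over the blank limit and 1 over the receptor limit. Of the sensory receptor genes, 37.2% were over the blank limit, so a call at that limit alone is weak.

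Of the 94 lipid metabolism genes, 75 were over the blank limit, or 79.8%, against 72.8% of all named genes. Over the receptor limit were 45, or 47.9%, against 42.8% of all named genes. The remaining 30 that passed the blank limit lay between the limits, and 19 did not pass it. The median signal of the 94 genes was 51.3, and that of all named genes was 40.1. These shares stood near those of the array as a whole, which makes them no result about lipid metabolism. Counts by role or list given below rest on few genes and were not tested. They are to be read beside the 72.8% and 42.8% of all named genes. All measured genes of fatty acid synthesis, acyl-CoA synthesis, glycerolipid assembly, lysophospholipid reacylation and the perilipin coat passed the blank limit, while 4 of 8 fatty acid binding proteins, 3 of 7 elongases, 3 of 10 lipases and patatin-like proteins, 5 of 17 phospholipases A2, 2 of 8 desaturases, 1 of 5 genes of the choline and ethanolamine steps and 1 of 9 of ceramide synthesis did not. Acsl1, Soat1, Soat2, Pla2g4b and Pla2g4d belong to the same families and were not analysed here, so sterol esterification has no gene among the 94.

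**Figure D1:**
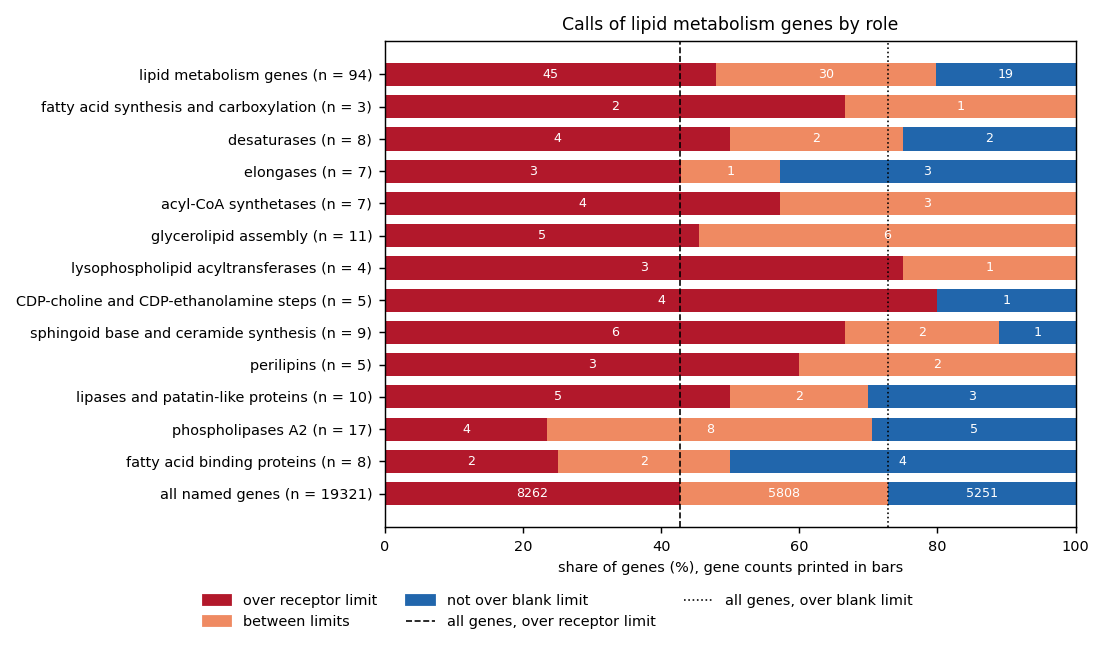
Horizontal bars give the share of genes in percent, with gene counts printed inside, that lay over the receptor limit, between the limits or not over the blank limit, for the 94 lipid metabolism genes, for each of their 12 roles and for all 19321 named genes. The dashed and dotted lines mark 42.8% and 72.8%, the shares of all named genes over the receptor and blank limits, and phospholipases A2 and fatty acid binding proteins, at 23.5% and 25% over the receptor limit, lie left of the dashed line.

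The macrophage label was checked first. All 12 macrophage markers were over the blank limit, and 11 cleared the stricter limit too, the exception being the engulfment receptor Mertk at 23.3. Of 10 measured adipocyte markers, 5 passed the blank limit and 1, the droplet protein gene Cidec at 62.4, passed the receptor limit. The adipocyte hormones Adipoq and Lep read 18.7 and 18.2 and did not pass. Hepatocyte markers passed the limits in 6 and 2 of 10 cases, epidermal and sebaceous markers in 4 and 1 of 9, muscle markers in 3 and 0 of 8, and enterocyte markers, which include Fabp2, in 4 and 3 of 7. Of all named genes, 72.8% and 42.8% passed the 2 limits. The enterocyte share at the receptor limit, 42.9%, was near that of all named genes. The markers of these other cell types that cleared the receptor limit were the hepatocyte genes Fgb at 175.7 and Apoc3 at 82.6, the keratin gene Krt1 at 61.3, and the enterocyte genes Alpi at 73.1, Cdx2 at 61.98 and Vil1 at 56.0. The albumin gene Alb read 23.9, over the blank limit alone, and Krt5 and Sis read 20.4 and 19.7, under it.

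Fatty acid synthesis had 2 of its 3 measured genes over the receptor limit, too few to set against the 42.8% of all named genes. Fasn (probe M200001441), the synthase that builds palmitate, read 316.5, or 13.8 times the blank limit. The Fasn spot had a local background of 179, so its signal was 1.77 times that background. Acaca, the cytosolic acetyl-CoA carboxylase that makes its malonyl-CoA substrate, read 275, or 11.98 times. Acacb, the isoform at the mitochondrial membrane whose product restrains fatty acid import, read 24.6 and lay 7.24% over the blank limit. With the 99th percentile of the blanks as the limit, Acacb was no longer called. A list for fatty acid supply and lipogenic carbon was counted beside them. It is not limited to suppliers of carbon and reducing power, as it also holds Mlycd, Mid1ip1 and Thrsp. Of 9 listed genes measured, 8 passed both limits, among them Acly at 243, Me1 at 274 and Idh1 at 735. Thrsp, a lipogenic gene of liver and fat, read 18.4 and did not pass.

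The Fasn promoter is shown because the gene encodes the synthase itself and was over both limits, and the capitals mark the letters CCAAT, the core of the site bound by NF-Y, on either strand. The window runs from 250 bases before to 50 bases after the start in RefSeq.
Fasn, GRCm38.p6 chr11:120824498-120824797, - strand: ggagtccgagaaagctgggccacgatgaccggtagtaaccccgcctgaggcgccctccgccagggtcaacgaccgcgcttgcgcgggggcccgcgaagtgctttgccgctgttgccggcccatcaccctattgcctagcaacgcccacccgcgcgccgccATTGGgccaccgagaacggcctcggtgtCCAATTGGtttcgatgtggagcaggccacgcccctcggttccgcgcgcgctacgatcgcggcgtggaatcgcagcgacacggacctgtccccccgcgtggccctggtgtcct

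Both desaturase families held members on either side of the limits. Desaturases put double bonds into acyl chains, the Scd enzymes into saturated chains and Fads1 and Fads2 into dietary polyunsaturated chains on the way to arachidonate. Scd2 (probe M200012250), the form known from brain and many other tissues, read 2786, or 121 times the blank limit. Scd1, the form of liver and fat, read 235.7, or 10.3 times. Scd4, known from heart, lay between the limits at 49.5, and Scd3, known from skin, read 19.3 and did not pass the blank limit. The Scd transcripts are alike, and whether the probes tell them apart was not tested. Fads1 read 1107 at a local background of 29.1, and Fads2 read 156.4. Fads3 lay between the limits at 30.4, with a local background of 26.5, and lost its call once the local background was subtracted. Fads6 read 22.2, or 3.34% under the blank limit, and all blank spots had a coefficient of variation of 7.20%.

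Elongases lengthen acyl chains, and of 7 measured 3 lay over the receptor limit, 1 between the limits and 3 under the blank limit. The 3 over the receptor limit were 42.9% of the family, against 42.8% of all named genes. Elovl5 (probe M200003737), which extends polyunsaturated chains, read 1368 at a local background of 614. Elovl6, which turns palmitate into stearate, read 169.9. Elovl1, which makes very long saturated chains, read 514 on one probe and 31.7 on the other, so its 2 probes fell on different sides of the receptor limit. Elovl3, known from skin and brown fat, read 25.4 at a local background of 22.7 and lost its call once that was subtracted. Elovl2 and Elovl4, which make longer polyunsaturated chains in tissues such as liver and retina, read 20.04 and 17.7, and Elovl7 read 20.2. These last 3 were called in 0 of the 11 settings tried at the blank limit.

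Acyl-CoA synthetases activate fatty acids, and all 7 measured passed the blank limit, as did 72.8% of all named genes. Acsl5 (probe M200006929) read 1948, or 84.8 times that limit. Acsl3, which acts where droplets form, read 200.3, and Acsl4, which prefers arachidonate, read 146. Acss2, the cytosolic acetate enzyme, read 64.9. The mitochondrial acetate enzyme Acss1 and its relative Acss3 lay between the limits at 27.7 and 32.8. Acss1 lost its call at the blank limit with local background subtracted and with normexp, a model-based background correction. Acsl6 lay there too, at 30.6, but the gene identifier of its probe was not found in the mouse gene table, so its name rests on the annotation alone.

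Assembly of glycerolipids had genes over the blank limit at every step, but among the chosen genes the first step rested on a weak call. All 11 measured were over the blank limit, and 5 of them (45.5%) cleared the receptor limit. Of all named genes, 72.8% and 42.8% did so. Gpam, the mitochondrial enzyme of the first acylation and the only chosen gene given for it, read 25.8. Gpam was called in 11 of 11 settings at the blank limit. Its signal was still under that of the highest blank spot, 27.04, and 48.2% of the No probe spots passed the blank limit too. The array therefore does not settle whether Gpam was expressed. The second acylation had Agpat5 (probe M200004793) at 972, Agpat3 at 251 and Agpat2 at 194.6, with Agpat4 and Agpat1 between the limits at 38.7 and 28.8. The Agpat3 spot had a local background of 204, so 46.7 was left after subtraction. Lipins then remove the phosphate. Lpin2 read 66.2, while Lpin1 and Lpin3 lay between the limits at 31.1 and 37.8. The last step to triacylglycerol is shared by unrelated enzymes, of which Dgat1 read 55.8 and Dgat2 read 24.9. Dgat1 lay 0.0666% over the receptor limit, less than the spread of control spots, and in the authors' deposited table it was not over the matching limit.

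Lysophospholipid acyltransferases, which reacylate phospholipids, all passed the blank limit, as did 72.8% of all named genes. Lpcat1 read 233.7 and Lpcat3, which prefers polyunsaturated chains, read 184. Lpcat4 and Lpcat2, of which Lpcat2 is known for platelet-activating factor in inflammatory cells, read 58.4 and 54.8. They lay 4.66% over and 1.82% under the receptor limit. Such distances are within the spread of control spots, but the blanks were dimmer and the positive controls far brighter. In the choline branch, Chkb read 267 and Chka read 58.5, which was 4.87% over the receptor limit. The rate-setting enzyme of the branch, Pcyt1a, read 98.1. The paralog of Pcyt1a, Pcyt1b, known from brain and gonads, read 19.3 and did not pass the blank limit. Pcyt2, the ethanolamine counterpart, read 334 at a local background of 188. Of 20 other genes of phospholipid synthesis measured, 18 were over the blank limit and 15 also cleared the receptor limit, such as Cept1 at 497 and Crls1 at 314. Chpt1, Cds1 and Lclat1 lay between the limits at 50.4, 28.1 and 30.0, and Mboat2 and Gpat2 did not pass, at 22.9 and 22.0.

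Sphingolipid synthesis had 8 of 9 measured genes over the blank limit and 6 over the receptor limit. These were 88.9% and 66.7%, against 72.8% and 42.8% of all named genes. With 9 genes the difference was not tested. Sptlc1 and Sptlc2, subunits of the serine palmitoyltransferase that condenses serine with palmitoyl-CoA, read 330 and 451, and the alternative subunit Sptlc3 lay between the limits at 42.8. Ceramide synthases then add an acyl chain whose length each enzyme sets. Cers2 (probe M200011973), which uses very long chains and is known from many tissues, read 1973 at a local background of 48.3. Cers5 and Cers6, which use palmitate, read 712 and 143, and Cers4 read 61.1 at a local background of 48.7. Cers1, known from brain and muscle, read 30.7 on one probe and 22.4 on the other, which fell on different sides of the blank limit. Cers3, which makes ultra-long ceramides of skin and testis, read 20.8 and was called in 0 of 11 settings. Of 22 other sphingolipid genes measured, 18 were over the blank limit and 12 also cleared the receptor limit, including the desaturase Degs1 at 926 and the lysosomal ceramidase Asah1 at 822. Acer1, Acer2, Asah2, Sphk1, Sphk2 and Ugcg lay between the limits at 29.4 to 54.3, and Degs2, Sgms2, Smpd3 and Sgpp2 did not pass, at 19.0 to 22.6.

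The promoters of Cers2 and Cers3 are shown as paralogs with opposite calls. Capitals mark CCAAT, the GC box GGGCGG and the E-box CACGTG on either strand. The Cers2 window held 4 matches and the Cers3 window held 0. Other genes differed from this pair. Elovl4, under the blank limit, had CCAAT, the GC box and the E-box in its window, and Acaca, over the receptor limit, had no match.
Cers2, GRCm38.p6 chr3:95314940-95315239, + strand: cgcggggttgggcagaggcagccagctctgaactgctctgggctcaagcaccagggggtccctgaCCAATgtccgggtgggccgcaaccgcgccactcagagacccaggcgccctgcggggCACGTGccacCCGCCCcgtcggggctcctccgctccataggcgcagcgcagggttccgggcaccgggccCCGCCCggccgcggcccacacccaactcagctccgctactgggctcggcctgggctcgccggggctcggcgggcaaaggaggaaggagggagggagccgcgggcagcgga
Cers3, GRCm38.p6 chr7:66743254-66743553, + strand: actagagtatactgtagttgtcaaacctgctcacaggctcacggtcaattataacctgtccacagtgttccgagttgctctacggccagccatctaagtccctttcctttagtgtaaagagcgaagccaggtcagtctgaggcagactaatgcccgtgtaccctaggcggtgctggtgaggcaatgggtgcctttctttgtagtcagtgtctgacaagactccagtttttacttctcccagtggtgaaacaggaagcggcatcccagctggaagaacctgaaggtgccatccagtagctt

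All 5 perilipins, which coat lipid droplets, were over the blank limit, and 3 cleared the receptor limit. Of all named genes, 72.8% and 42.8% did so, and 5 genes are few. Plin2 (probe M300006123), the coat protein of most cells outside fat, read 330, and Plin3, which also moves between cytosol and droplet, read 279. The Plin2 spot had a local background of 271, so its signal was 1.22 times that background, and 59.4 was left after subtraction. Plin5, known from oxidative tissues, read 113. Plin1, which guards the droplet of fat cells, and Plin4 lay between the limits at 32.0 and 23.8. Plin4 was called in 7 of the 11 settings at the blank limit. Among 18 other droplet proteins, 14 were over the blank limit and 12 also cleared the receptor limit, with Aup1 at 1200, the seipin gene Bscl2 at 292 and Fitm2 at 58.2. The droplet proteins Cidea, Cideb, Fitm1 and Hsd17b13 did not pass the blank limit, at 18.8 to 22.1.

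Promoters of 3 perilipins are shown, 1 for the common droplet coat and 2 for the neighbouring genes Plin4 and Plin5, with the same letters in capitals. The windows held 3 matches for Plin2, 4 for Plin5 and 1 for Plin4.
Plin2, GRCm38.p6 chr4:86670010-86670309, - strand: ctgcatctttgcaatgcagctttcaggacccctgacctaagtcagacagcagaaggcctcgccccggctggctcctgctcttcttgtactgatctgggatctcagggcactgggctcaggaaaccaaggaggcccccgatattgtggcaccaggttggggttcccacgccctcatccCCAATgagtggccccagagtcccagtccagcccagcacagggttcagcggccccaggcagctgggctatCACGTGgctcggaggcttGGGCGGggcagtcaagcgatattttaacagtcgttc
Plin5, GRCm38.p6 chr17:56117499-56117798, - strand: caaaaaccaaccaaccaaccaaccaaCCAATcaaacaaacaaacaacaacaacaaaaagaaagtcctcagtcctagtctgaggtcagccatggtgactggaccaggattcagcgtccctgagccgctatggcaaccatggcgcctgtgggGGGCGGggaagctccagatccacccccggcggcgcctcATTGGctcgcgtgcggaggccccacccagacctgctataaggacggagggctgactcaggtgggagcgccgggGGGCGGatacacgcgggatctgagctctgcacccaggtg
Plin4, GRCm38.p6 chr17:56109733-56110032, - strand: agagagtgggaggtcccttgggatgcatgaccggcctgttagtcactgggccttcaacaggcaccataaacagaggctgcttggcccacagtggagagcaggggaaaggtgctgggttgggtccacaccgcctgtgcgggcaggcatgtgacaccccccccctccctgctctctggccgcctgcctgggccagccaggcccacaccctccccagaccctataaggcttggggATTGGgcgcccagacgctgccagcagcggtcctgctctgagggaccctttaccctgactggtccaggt

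Lipases act in sequence on stored or circulating triacylglycerol. Lpl (probe M300001423), the secreted lipase that frees fatty acids from lipoproteins and is made by macrophages, read 8562, or 373 times the blank limit. Pnpla2, the adipose triglyceride lipase that takes the first acyl chain, read 115, and its activator Abhd5 read 147 on one probe and 43.8 on the other, on different sides of the receptor limit. Lipe, the hormone-sensitive lipase, read 64.2, and Mgll, the monoacylglycerol lipase, lay between the limits at 33.2. G0s2, an inhibitor of Pnpla2, lay between the limits at 29.2. The related phospholipase genes Pnpla7 and Pnpla8 read 128 and 105, and Pnpla6, which splits lysophospholipids, read 53.0, or 4.89% under the receptor limit. Pnpla1, of skin, and Pnpla3, of liver, read 19.5 and 20.8. Pnpla5 read 22.9 and missed the blank limit by 0.195%, and it passed with 1 SD, with the negative controls and with the blanks of its own block. Of 13 genes of fatty acid uptake and lipoprotein lipolysis outside the family, 10 (76.9%) were over the blank limit and 6 (46.2%) also cleared the receptor limit. The highest signal of this list was that of Cd36, at 1024. The lysosomal acid lipase gene Lipa read 681, and the fatty acid transporters Slc27a1 and Slc27a4 read 132 and 57.5. The endothelial anchor of Lpl, Gpihbp1, lay between the limits at 30.0. The transporter genes Slc27a3, Slc27a5 and Slc27a6 also lay there, at 27.8 to 37.5, and Slc27a2, Lipg and Vldlr did not pass the blank limit, at 18.4 to 20.8.

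Phospholipases A2 free the middle acyl chain of phospholipids. Of the 17 measured, 4 (23.5%) passed the receptor limit, against 42.8% of all named genes. This difference was not tested. Pla2g4a (probe M400005441), the calcium-responsive cytosolic enzyme that releases arachidonate, read 1427, or 62.1 times the blank limit. Pla2g4c, a cytosolic relative, read 102, and Pla2g4e and Pla2g4f lay between the limits at 26.0 and 25.02 and lost their calls with local background subtracted. The identifier of the Pla2g4e probe was also not found in the mouse gene table. Pla2g6, the calcium-independent enzyme, lay between the limits at 35.5. Among secreted enzymes, Pla2g12a read 274 and Pla2g5, known from macrophages, read 67.8, while Pla2g2c, Pla2g2d, Pla2g2e, Pla2g2f and Pla2g3 lay between the limits at 31.4 to 41.1. Pla2g1b of the pancreas, Pla2g10 and Pla2g12b read 18.8 to 21.5, and Pla2g7, which breaks down platelet-activating factor, read 22.1. Pla2g2a, listed as a transcribed pseudogene in the RefSeq gene table of the C57BL/6J assembly, read 18.6.

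Eicosanoids are made from the freed arachidonate by the lipoxygenase and cyclooxygenase routes. Of 15 measured, 12 were over the blank limit and 9 also cleared the receptor limit. In the leukotriene route, Alox5 read 228, its helper Alox5ap read 1955, Lta4h read 494 and Ltc4s read 253. In the prostaglandin route, the inducible cyclooxygenase gene Ptgs2 read 74.0. Of the genes named as prostaglandin E synthases, Ptges2 and Ptges3 read 144.3 and 475, whereas Ptges lay between the limits at 26.2. The names do not show that each makes prostaglandin E in these cells, which was not measured. Hpgds read 1043 and Hpgd, which breaks prostaglandins down, read 1330, and Ptgds and Ptgis lay between the limits at 34.04 and 34.9. Ptgs2, Ptges2 and Ptges3 were named after their values were seen. Alox12, Alox15 and Tbxas1 did not pass, at 19.4 to 21.5.

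Fatty acid binding proteins carry acyl chains through the cytosol, each in its own tissues. Fabp3 (probe M400001115), of heart and muscle, read 145, and Fabp5, of epidermis and macrophages, read 79.1. The Fabp5 spot had a local background of 67.4, and its receptor call was lost once that was subtracted. Fabp4, the form of fat cells and of many macrophages, read 21.2 and was called in 0 of 11 settings at the blank limit. Fabp1 of liver and Fabp6 of ileum lay between the limits at 36.3 and 47.2. Fabp2 of intestine, Fabp7 of brain and Fabp9 of testis read 18.0, 21.5 and 18.9 and did not pass.

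**Figure D2:**
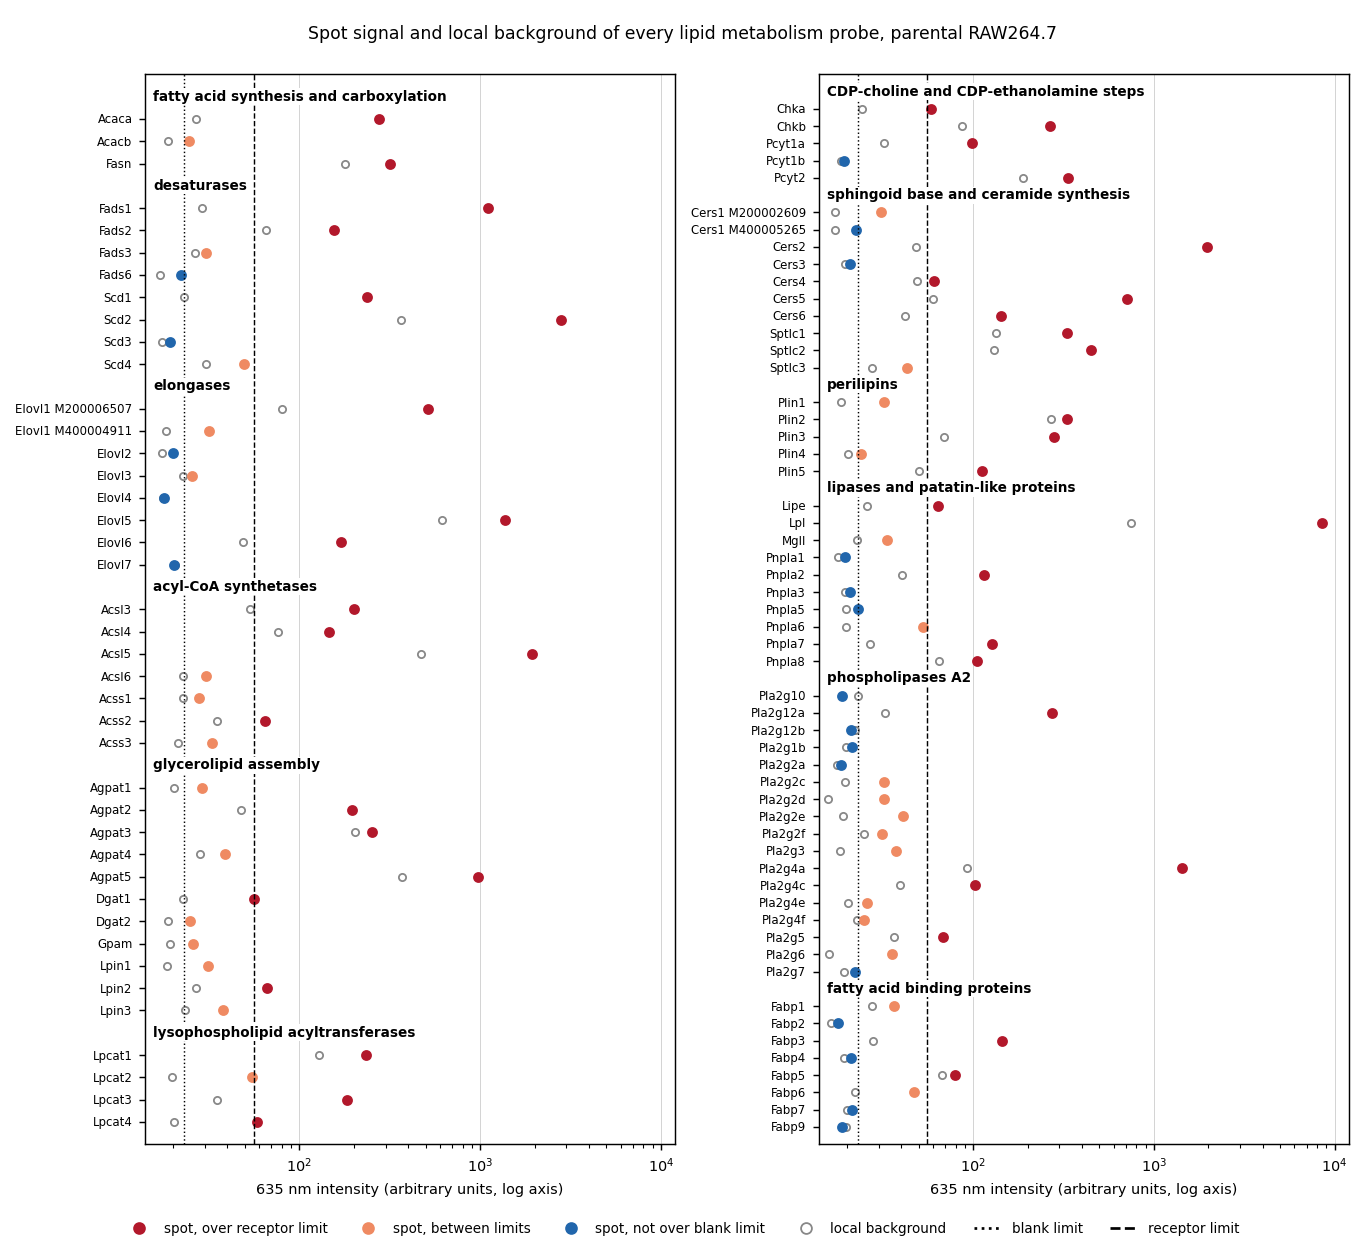
Each row is 1 of the 96 lipid metabolism probes, with its Cy5 spot median as a filled point and its local background as an open point, both in arbitrary units on a log axis, grouped by role. Dotted and dashed lines mark the blank limit of 22.98 and the receptor limit of 55.8, and the points of Lpl, at 8562, and of Plin2, whose background of 271 lies close to its signal of 330, show how far spots stood from their surroundings.

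Regulators and consumers of fatty acids outside the chosen symbols were counted as lists, chosen with earlier results of these data known. Of all named genes, 72.8% were over the blank limit and 42.8% over the receptor limit, with a median signal of 40.1. Differences from these values were not tested. Of 19 genes of lipogenic transcription and sterol sensing, 17 (89.5%) were over the blank limit and 13 (68.4%) also cleared the receptor limit. The list had a median signal of 168.4. Srebf1 and Srebf2, the SREBP factors of lipid and sterol synthesis, read 168.4 and 183, and Insig1, Insig2 and Mbtps1, which hold back or process them, read 127, 173.6 and 250.3. Ppara and Pparg, nuclear receptors of fatty acid oxidation and fat storage, read 19.5 and 19.1 and did not pass, and Ppard, Mbtps2, Rxra and Mlxipl lay between the limits at 23.5 to 41.3. Of 22 genes of fatty acid oxidation, 21 (95.5%) were over the blank limit and 18 (81.8%) also cleared the receptor limit. The list had a median signal of 397. Cpt1a, the gate of mitochondrial import, read 159, and the acyl-CoA dehydrogenases Acadl, Acadm, Acads and Acadvl read 924, 1111, 191 and 417. Decr1, needed for polyunsaturated chains, read 21.5 and did not pass, and Cpt1c, Acox3 and Ehhadh lay between the limits at 24.95, 26.5 and 31.0. Srebf1, Srebf2 and Cpt1a were named after their values were seen.

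Lipid metabolism genes that lie next to each other in the genome were set side by side. Taking genes with at most 2 other genes between them as neighbours gave 7 groups with 22 genes. In 6 of the 7 groups members fell on both sides of the receptor limit, and in 3 on both sides of the blank limit. Of all named genes, 42.8% were over the receptor limit and 72.8% over the blank limit. The same count for other neighbouring genes of the array was not made, so these splits are no result about lipid metabolism genes. In the Scd group, Scd3 did not pass, and Scd2, Scd4 and Scd1 did. In the group of Fabp5, Fabp9 and Fabp4 the first was over the receptor limit and the others were under the blank limit. The secreted phospholipase group held Pla2g5 over the receptor limit, Pla2g2a under the blank limit and 4 genes between. Pnpla5 and Pnpla3, both under the blank limit, formed the group with the same call throughout.

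**Figure D3:**
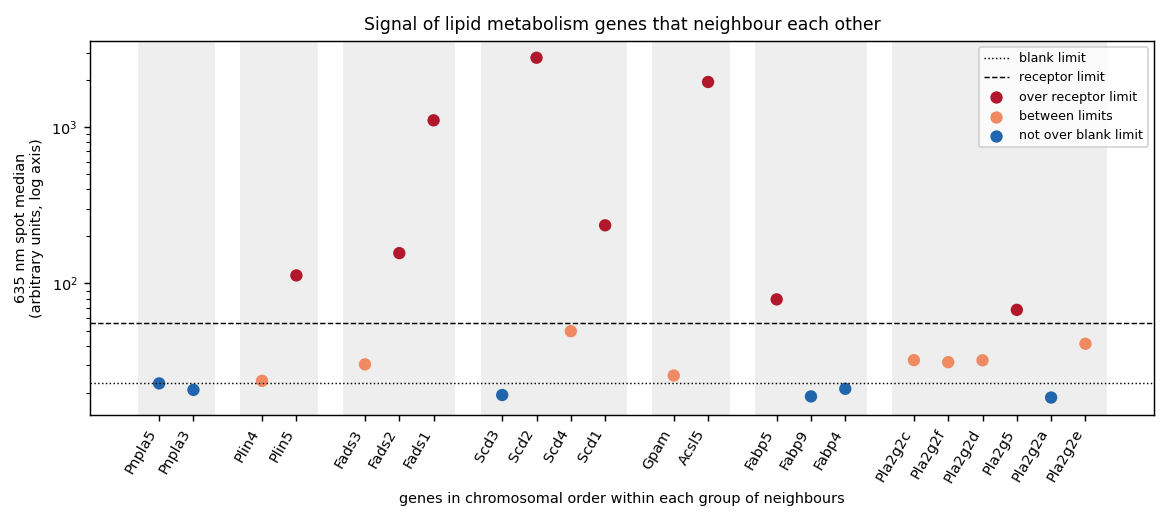
Points give the Cy5 spot median in arbitrary units on a log axis for 22 lipid metabolism genes in 7 groups of genomic neighbours, drawn in chromosomal order on grey bands with colours for the call. In 6 groups the points lie on both sides of the dashed receptor limit at 55.8, as in the Fads group, where Fads3 reads 30.4, Fads2 156.4 and Fads1 1107. Other neighbouring genes of the array were not counted.

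Promoter letters were counted as a description. RefSeq promoter windows of GRCm38.p6 were found for 79 of the 94 genes, and the first listed start of each gene was used. No window was found for Acss3, Agpat5, Dgat1, Dgat2, Elovl3, Fabp4, Fabp5, Fabp9, Fads1, Lpl, Pcyt2, Pla2g2a, Pla2g3, Scd1 and Scd2. The promoters of these genes were therefore not searched. The letters CCAAT stood in 48.1% of the 79 windows, against 38.4% of the promoters of the 15159 named genes with a window. The GC box stood in 53.2%, against 50.2%, and the E-box in 15.2%, against 8.52%. The sterol element letters TCACNCCAC, where N is any base, stood in 3 windows, those of Pcyt1a, Pla2g12a and Fabp6, or 3.80%, against 1.19%. Among lipid metabolism genes over the receptor limit 64.9% (24 of 37) had the GC box, and among those under the blank limit 50% (8 of 16) did. The shares for all named genes were 64.0% of 6622 and 32.2% of 4047. With so few lipid metabolism windows, a few genes move these shares, and the differences were not tested. For CCAAT these shares were 51.4% (19 of 37) and 50% (8 of 16), against 39.4% and 37.7% for all named genes. For the E-box they were 18.9% (7 of 37) and 12.5% (2 of 16), against 10.9% and 5.51%. Both strands were searched, and overlapping matches were each counted. No match says only that these letters are not in the window.

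Many calls rested on spots with a raised local background or changed with a setting. Of 45 lipid metabolism spots over the receptor limit, 21 (46.7%) had a local background over it too, against 5087 of 9407 (54.1%) among all gene probes over it. In 4 of the 45 (8.89%), namely Agpat3, Plin2, Fabp5 and Cers4, the signal was under 1.5 times the local background, against 942 of the 9407 (10.01%) among all gene probes. Of the 45 genes over the receptor limit 18 changed call in at least 1 setting, and of the 75 over the blank limit 8 did. Of the 18, 14 changed only with the 99th percentile of the receptor probes, which also took all named genes from 8262 to 5322. Changed calls were not counted for all named genes, so these numbers say nothing particular to lipid metabolism. Across the 96 probes, spot signal and local background rose together (Spearman's rho 0.854, against 0.879 over all gene probes, across probes, which share 1 array and are not replicates). The share of lipid metabolism genes called lay over that of all named genes in 11 of 11 settings of the blank limit, by 5.81 to 10.3 percentage points, and in 7 of 7 settings of the receptor limit, by 2.24 to 6.48 points. All settings read the same array, and some gave the same calls by construction, so their number adds no weight. The authors' table changed no call at the blank limit, and normexp changed the same calls as local background subtraction. Genes are not replicates, and these differences were not tested.

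**Figure D4:**
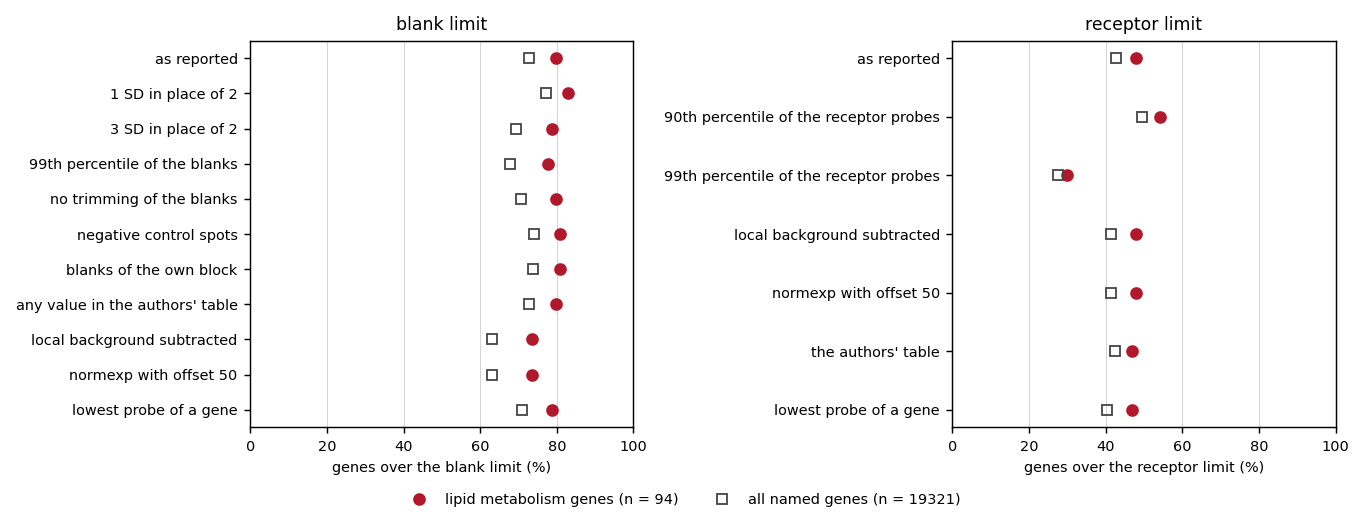
Filled points give the percent of the 94 lipid metabolism genes and open squares the percent of all 19321 named genes over the blank limit, left, and over the receptor limit, right, under each setting named on the vertical axes. The lipid metabolism points lie right of the squares in every setting shown, from 73.4% to 83.0% at the blank limit and from 29.8% to 54.3% at the receptor limit. All settings read the same array and are not independent.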

How the data were processed

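Total RNA of parental RAW264.7 cells was amplified, coupled to Cy5 and hybridised to a Toray array, per the labels' protocols. The deposited scanner output gives the intensity of each spot and of its local background in the Cy5 channel as pixel medians from 3 gains, per the file headers; the tool that joined them was not given in the sources used here. Of 27456 spots, 0 carried a flag other than OK. The authors' deposited table holds an intensity per probe as whole numbers with empty cells, and its scale, centring and treatment of low values are not stated. Its values follow the spot median minus the blank mean times 0.486 (mean over 2987 probes with values over 200), within 0.499 for the probes with a value here, so they are linear; its column median is 25, and why it was set there stays unknown. The 20 empty cells among the 96 probes are the probes not over the blank limit. As a single channel, it has no ratio direction.

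Blanks (2736 spots, 5% left out at each end) gave the blank limit, and 1223 probes of olfactory, vomeronasal and taste receptors the receptor limit. Spots of a repeated probe were averaged. Names came from the platform annotation, with 1 symbol for 20690 probes, several for 0 and none for 2783, updated through gene identifiers to a RefSeq table of GRCm38.p6, which held those of 94 of the 96 probes. Calculations used Python 3.11.15, pandas 2.3.3, numpy 2.4.6 and scipy 1.17.1, and normexp used limma 3.58.1 in R 4.3.3. The genes open to naming are all 94 genes, and of other lists those not over the receptor limit plus up to 6 over it in alphabetical order, except where stated. Srebf1, Srebf2, Cpt1a, Ptgs2, Ptges2, Ptges3 and Plaat3 are such exceptions, and some genes open to naming are given by the counts of their list. The rule for the members uses symbols alone, but it, the lists and the limits were chosen with earlier results of these data known. Alternatives covered the limit, the background correction, the authors' table and the probe rule. A planned comparison of protein sequences was not run, and protein sequences were not used here.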

Additional observations from a re-analysis of the deposited data

How the results depend on the processing

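The counts of lipid metabolism genes and of all named genes over the blank limit stayed within 1.5 times their reported values under all 10 alternatives, at 69 to 78 and 12202 to 14910 genes. At the receptor limit, the 99th percentile of the receptor probes in place of the 95th lowered the counts to 28 and 5322, by its construction, since it raises the limit to 146. The other 5 alternatives left 44 to 51 lipid metabolism genes. The median signal of 51.3 became 20.9 with local background subtracted and 82.5 with normexp and an offset of 50, which change the scale of the values, and 48.3 with the lowest probe of a gene. Of the 75 genes called at the blank limit, 67 were called in every setting, and of the 19 not called, 16 were called in none, with Fads6, Pla2g7 and Pnpla5 gained in at least 1. At the receptor limit, 27 of 45 were called in every setting, 14 were lost at the 99th percentile alone, and Cers4, Dgat1, Elovl1 and Fabp5 were lost under another setting. Local background subtraction and normexp gained Lpcat2 and Pnpla6 there. No paired analysis was possible because there is 1 sample. Signal over background limits what can be said of the 16 genes called in no setting: they were not detectable on this array, which does not show that they are absent.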

Other observations

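Enzymes related to the described families by function but outside the chosen symbols were listed after the data had been seen. Of 20 such genes, 14 were over the blank limit and 7 also cleared the receptor limit. The median of the list was 27.9, and that of all named genes was 40.1. Gpat4, a glycerol phosphate acyltransferase of the endoplasmic reticulum, read 286, while its relative Gpat3 lay between the limits at 26.6 and Gpat2 read 22.0. The lipid hydrolase genes Abhd6, Abhd12 and Abhd16a read 563, 750.1 and 243. Plaat3, a phospholipase of fat cells, read 61.2 and was named after its value was seen, and Plaat1 and Plaat5 read 20.8 and 18.7. Medium-chain synthetases of the Acsm family, known from liver and kidney, passed the blank limit in 2 cases, Acsm2 at 45.3 and Acsm5 at 29.1, while Acsm1, Acsm3 and Acsm4 read 19.5 to 22.3. Pla2r1, a receptor for secreted phospholipases, read 87.6.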
